A study of Mus musculus with 8 samples.

Results

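Platelet-lineage genes that are read in haematopoietic stem cells (HSCs), and the thrombin receptor gene F2r, were followed across sorted bone marrow cells of healthy mice and of mice with chronic myelogenous leukaemia (CML). The 9 genes, chosen by symbol out of the 20207 genes in each table, were F2r, F2rl2, Vwf, Pf4, Itga2b, Gp1bb, Gp9, Cd9 and Selp. The choice used measured values. The platelet-lineage genes were picked because they are seen in HSCs, and F2r belonged to the study's screen for genes higher in CML stem cells than in normal HSCs and than in CML KLS- progenitors. The paper describes that screen for long-term (LT) stem cells, so LT libraries took part in the choice of F2r. Values of F2r between CML and normal cells, and levels of all members in stem against KLS- cells, are therefore given as a description with no test. Whether the CML effect differed between stem and KLS- cells was tested for the 8 members other than F2r, and that test uses KLS- values too. Tests of members on other contrasts are not independent of the choice.

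RNA of these sorted cells was sequenced in 8 libraries. LT cells (CD150+CD48-CD135- KLS+, where KLS+ means cKit+, Lineage- and Sca-1+) gave 2 libraries from normal mice (LT-HSC) and 2 from CML mice (LT-CML). ST cells, gated alike but CD150-, gave 1 ST-HSC and 1 ST-CML library, and KLS- cells (cKit+, Lineage-, Sca-1-) gave 1 normal and 1 CML library. In the study's methods CML mice carry Tal1-tTA, in which the Tal1 promoter drives the transactivator tTA in stem and progenitor cells, and TRE-BCR-ABL1, which is switched on when doxycycline is withdrawn. Healthy littermates carry Tal1-tTA alone, so both sides share that transgene. The methods name the FVB/N background, whereas the labels name C57BL/6 for all libraries, and give 6 months as the age of the mice behind LT-HSC replicate 2 and 2 months for the other normal libraries. LT-HSC replicates thus differ in age. The labels give no age for CML libraries, while the methods give healthy littermates and CML mice the same age range, of young adults, into which the 6-month library does not fall. Nothing says how many mice went into a library, so that spread between libraries may be technical.

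Levels are RPKM, the reads of a transcript per kilobase of length and per mapped M reads (M as in Mb), at an estimated 17.8 to 23.9 M reads a library. Differences are on the log2(RPKM + 1) scale, which understates the change of low genes. Summed over 7 neutrophil genes, RPKM were 4050 in LT-HSC replicate 2, 3414 in LT-CML replicate 2 and 1859 in ST-CML, against 118 to 536 in the other stem libraries. The sums differ in make-up. S100a8 was the highest of these genes in LT-HSC replicate 2 (1802 RPKM, with Mpo at 69.9), and Mpo in LT-CML replicate 2 (1291) and ST-CML (830). Member calls between LT and ST cells, and the F2rl2 call between CML and normal cells, are also given without some of these libraries. Other values use all libraries of the comparison unless stated. CD150 transcripts followed the gate, since Slamf1 was 10.7 to 35.5 RPKM in LT libraries and at most 2.87 in the others. Flt3, which encodes CD135, was 61.6 RPKM in ST-HSC and 71.6 in ST-CML although both were gated as CD135-.

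Thrombin, the last protease of the clotting cascade, cleaves protease-activated receptors (PARs) on platelets and vessel cells and so starts signalling. Platelets are shed by megakaryocytes, which load them with granule proteins such as von Willebrand factor and platelet factor 4 and coat them with the von Willebrand factor receptor GPIb-IX-V and the fibrinogen receptor αIIbβ3. Megakaryocytes descend from HSCs, and a CD150+ fraction of HSCs is known to carry transcripts of this lineage before any platelet forms.

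In the mm9 genome F2r (ENSMUSG00000048376) lay on the minus strand at chr13:96371759-96388414 with 2 exons, and F2rl2 on the plus strand at chr13:96466808-96472694. F2rl2 is placed inside Iqgap2, which is on the other strand, and shares 0 exon bases with it. Vwf (chr6:125496792-125636697) had 52 exons, Pf4 (chr5:91201461-91202407) 3 and Itga2b (chr11:102314611-102331436) 30. Gp9 (chr6:87728130-87729756) and Cd9 (chr6:125410284-125444809) share a chromosome with Vwf, and Selp lies at chr1:166045395-166080157. Gp1bb (chr16:18620412-18622496) is annotated on the same strand as Sept5, with 593 of its 1881 exon bases (31.5%) in common. Reads in that stretch could belong to either gene, and how much of the Gp1bb values they make up was not measured. Cd9 and Selp overlap antisense non-coding genes, and no source used here states that strand was used in counting.

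The sequences just before the transcription start were searched for short words that the members might share. RefSeq entries on GRCm38.p6, a later build than that of the files, held 8 of the 9 genes, and Vwf had none. Words of 3 kinds were searched on both strands of the 250 bases before each start: GATA words (AGATAA or AGATAG or TGATAA or TGATAG), ETS words (AGGAAG or CGGAAG) and RUNX words (TGTGGT or TGCGGT), which resemble sites of the megakaryocyte factors GATA1, FLI1 and RUNX1. An ETS word stood in 7 of the 8 sequences, against 39.2% of 32851 mouse promoter sequences of the same length. GATA words stood in 2 (F2rl2 and Gp1bb), against 26.5%, and RUNX words in 2 (F2r and Gp9), against 18.6%. The 4 sequences shown, with every searched word in capitals, are those of both receptors and of the leading adhesion and granule genes. They lie at chr13:95618467-95618716 on the minus strand (F2r), chr13:95696670-95696919 on the plus strand (F2rl2), chr11:102469884-102470133 on the minus strand (Itga2b) and chr5:90772185-90772434 on the plus strand (Pf4), and read 5′ to 3′ towards the start site.
F2r: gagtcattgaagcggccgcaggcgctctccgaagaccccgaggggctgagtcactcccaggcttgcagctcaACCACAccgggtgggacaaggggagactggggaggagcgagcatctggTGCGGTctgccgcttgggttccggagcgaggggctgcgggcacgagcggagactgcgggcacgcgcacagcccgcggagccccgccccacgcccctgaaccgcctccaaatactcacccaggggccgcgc
F2rl2: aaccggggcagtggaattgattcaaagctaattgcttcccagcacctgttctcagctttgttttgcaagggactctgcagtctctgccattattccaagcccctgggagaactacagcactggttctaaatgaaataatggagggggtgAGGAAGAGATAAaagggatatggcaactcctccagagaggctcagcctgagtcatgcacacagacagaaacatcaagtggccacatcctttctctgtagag
Itga2b: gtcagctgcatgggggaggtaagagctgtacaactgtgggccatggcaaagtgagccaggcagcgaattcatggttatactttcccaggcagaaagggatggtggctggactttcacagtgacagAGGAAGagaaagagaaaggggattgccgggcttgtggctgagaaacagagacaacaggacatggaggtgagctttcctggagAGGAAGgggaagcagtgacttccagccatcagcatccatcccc
Pf4: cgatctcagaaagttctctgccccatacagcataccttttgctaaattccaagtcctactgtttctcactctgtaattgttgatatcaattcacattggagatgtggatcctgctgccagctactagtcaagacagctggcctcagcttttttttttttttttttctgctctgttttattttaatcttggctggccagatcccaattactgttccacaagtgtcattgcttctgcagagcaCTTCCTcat
F2r was the member with no ETS word, and its capitals are RUNX words, 1 of them on the reverse strand and so printed as its complement, ACCACA. In F2rl2 the ETS word AGGAAG, from base -101 to -96, ran directly into the GATA word AGATAA, from -95 to -90. Itga2b held the ETS word at a pair of places and Pf4 held it on the reverse strand, from -9 to -4, printed as CTTCCT. Such matches are short words in sequence and were not measured as binding sites.

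**Figure D1:**
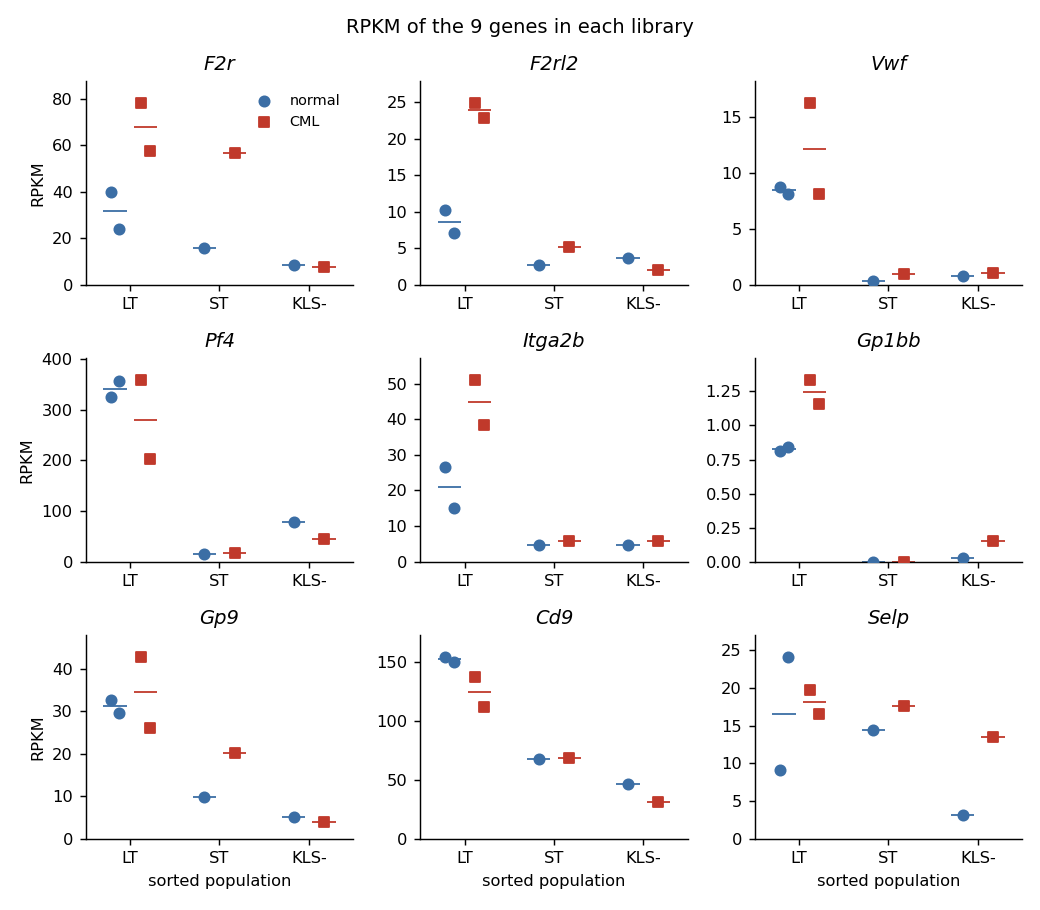
RPKM (vertical axis, linear and from 0, a scale for each gene) of the 9 genes in LT, ST and KLS- cells of normal (circles) and CML (squares) mice, with a point for each library and a line at the mean. LT points of Pf4, Vwf, Itga2b, F2rl2, Gp1bb, Gp9 and Cd9 all stand above the ST points, whereas F2r is raised in ST-CML too and Selp shows no step between LT and ST.

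F2r encodes PAR1, the main thrombin receptor of many cell types, which mouse platelets are known to lack. Its level was 39.9 and 23.8 RPKM in LT-HSC replicates 1 and 2 and 15.5 in ST-HSC. In CML it was 78.2 and 57.3 RPKM in LT-CML replicates 1 and 2 and 56.7 in ST-CML, so that each CML stem library stood above each normal HSC library, a pattern of 1 of the 9 members and of 6.92% of all genes tested. Normal KLS- cells had 8.22 RPKM and CML KLS- cells 7.60, the lowest levels of all. By mean RPKM, CML exceeded normal 2.13-fold in LT and 3.65-fold in ST cells, but CML KLS- was 0.924 of normal KLS-. These differences were part of the reason for choosing F2r and have no test. In order of level, LT-CML (67.8 ± 14.8 RPKM, SD, n = 2) and ST-CML lay within an SD of each other, followed by LT-HSC (31.9 ± 11.4 RPKM, SD, n = 2), ST-HSC and both KLS- libraries. The KLS- libraries differed by less than 10% with counting errors of 4.26% and 4.73%.

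F2rl2 encodes PAR3, which on mouse platelets holds thrombin for its neighbour PAR4. Its level was 10.2 and 7.09 RPKM in LT-HSC, 2.70 in ST-HSC and 3.67 in normal KLS- cells. CML cells had 24.9 and 22.9 RPKM in LT-CML, 5.10 in ST-CML and 2.03 in KLS-. Both LT-CML libraries were above both LT-HSC libraries, a 2.77-fold ratio of means, and ST-CML was 1.89-fold above ST-HSC but below both LT-HSC libraries. KLS- cells went the other way, with normal above CML 1.81-fold. In LT-CML cells F2rl2 stood 11.8-fold above CML KLS- cells, against 2.36-fold between the corresponding normal populations. Those ratios to KLS- cells are described with no test.

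The other 2 genes of the receptor family behaved differently. F2rl3 encodes PAR4, the signalling thrombin receptor of mouse platelets, and was 10.9 to 16.4 RPKM in all 6 stem libraries. Neither its difference between CML and normal stem libraries (0.02, SE 0.16, adjusted p = 0.967 from limma) nor that between LT and ST (-0.19, SE 0.17, adjusted p = 0.610 from limma) passed the threshold. F2rl1, for the trypsin receptor PAR2, was at most 0.0716 RPKM in any library, which is about 4 reads. Although it lies 76.6 kb from F2r, it held 0 reads in 5 of the 8 libraries. On the other side of F2r, 8.72 kb away, Iqgap2 was 26.9, 28.8 and 29.0 RPKM in normal LT and ST libraries and 20.8, 18.8 and 18.2 in those of CML (difference -0.53, SE 0.13, adjusted p = 0.0655 from limma). F2rl2, which lies within Iqgap2, differed with the opposite sign. Sv2c was at most 0.50 RPKM, Crhbp at most 0.0996 RPKM, and S100z was listed at 0 in all libraries.

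**Figure D2:**
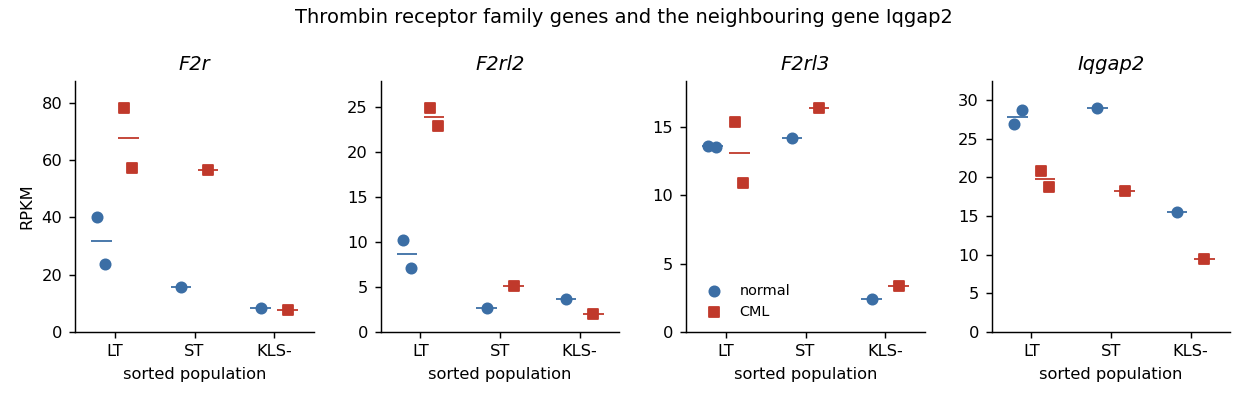
RPKM (vertical axis, linear and from 0) of the receptor genes F2r, F2rl2 and F2rl3 and of Iqgap2, the gene next to F2r and around F2rl2, in LT, ST and KLS- cells of normal (circles) and CML (squares) mice, with lines at means. F2r is high in LT-CML and ST-CML, F2rl2 in LT-CML, F2rl3 is level over the stem libraries, and Iqgap2 is lower in each CML library than in the normal library or libraries of the same gate.

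Itga2b encodes integrin αIIb (CD41), which marks megakaryocytes and early blood stem cells. It was 26.7 and 15.1 RPKM in LT-HSC, 4.72 in ST-HSC and 4.68 in normal KLS- cells. CML cells had 51.0 and 38.4 RPKM in LT-CML, 5.85 in ST-CML and 5.86 in KLS-. All LT libraries were above all others, both LT-CML above both LT-HSC, and ST and KLS- levels were nearly equal within each disease state. Its partner Itgb3, for the β3 chain, was 4.68 and 5.62 RPKM in LT-HSC and 18.2 and 18.6 in LT-CML, against 1.22 in ST-HSC and 3.92 in ST-CML. Per length, αIIb transcripts thus exceeded those of β3 in every library.

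The von Willebrand factor receptor is built from GPIbα, GPIbβ, GPIX and GPV. Gp9, for GPIX, was 32.7 and 29.5 RPKM in LT-HSC, 42.7 and 26.1 in LT-CML, 9.71 in ST-HSC, 20.2 in ST-CML, and 5.11 and 4.01 in normal and CML KLS- cells. Gp1bb, for GPIbβ, was 0.814 and 0.839 RPKM in LT-HSC and 1.33 and 1.16 in LT-CML, or about 30, 37, 51 and 39 reads. Both ST libraries held 0 reads of Gp1bb, and KLS- cells about 1 (normal) and 5 (CML). Taking 3 reads as the limit that 0 allows (0.0864 and 0.0872 RPKM), mean RPKM of Gp1bb was at least 9.56-fold higher in LT-HSC than in ST-HSC and at least 14.3-fold higher in LT-CML than in ST-CML. Such limits cover counting error only, and not reads from the stretch shared with Sept5. Gp1ba was 4.16 to 7.12 RPKM in LT and 2.30 and 2.46 in ST libraries, and Gp5 was 1.10 to 1.57 and 0.122 and 0.172. The platelet collagen receptor gene Gp6 was at most 0.0858 RPKM.

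**Figure D3:**
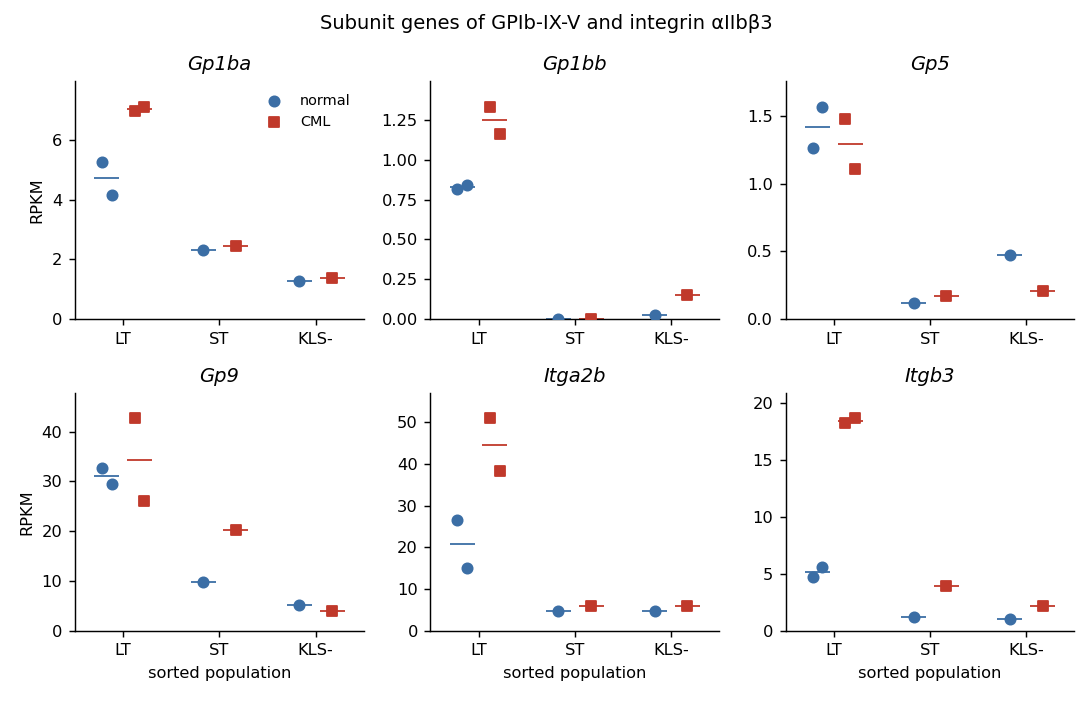
RPKM (vertical axis, linear and from 0, a scale for each gene) of the GPIb-IX-V subunit genes Gp1ba, Gp1bb, Gp5 and Gp9 and of the αIIbβ3 subunit genes Itga2b and Itgb3, in normal (circles) and CML (squares) libraries with lines at means. For each gene the 4 LT libraries stand above both ST libraries, and Itgb3 is higher in CML than in normal cells within each gate.

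Pf4 encodes platelet factor 4, a chemokine of platelet alpha granules that also holds HSCs at rest. At 326 and 356 RPKM in LT-HSC and 359 and 202 in LT-CML it was the highest of the 9 genes in those libraries. It was 16.1 RPKM in ST-HSC and 16.4 in ST-CML, and 77.6 and 44.5 in normal and CML KLS- cells. The order was LT, KLS-, ST in both disease states, with KLS- 4.82-fold above ST in normal and 2.71-fold in CML mice. Vwf, for von Willebrand factor, which bridges platelets and the vessel wall, was 8.75 and 8.12 RPKM in LT-HSC and 16.2 and 8.05 in LT-CML. It was 0.326 RPKM in ST-HSC, 0.913 in ST-CML, 0.734 in KLS- cells of normal and 1.08 in those of CML mice. LT-HSC exceeded ST-HSC 25.9-fold and LT-CML exceeded ST-CML 13.3-fold in mean RPKM. LT-CML replicate 1 stood apart above the other 3 LT libraries, which were nearly equal.

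Vwf and Selp are also made by endothelial cells. The endothelial gene Cdh5 was at most 0.0276 RPKM in any library and 0 in both ST libraries, and Kdr was at most 0.476. Summed over 5 endothelial genes, RPKM were 28.0 to 40.1 in LT, 43.2 to 58.0 in ST and 18.2 to 27.8 in KLS- libraries, mostly from Pecam1 and Emcn, and Tie1 was 6.10 to 11.8 in LT, 6.93 and 8.61 in ST. The part of endothelial RNA in the levels of Vwf and Selp was not tested. Other platelet genes were far below Pf4, with Tubb1, for a tubulin of platelets, at most 1.36 RPKM and the chemokine gene Ppbp at most 4.73. In bulk libraries, fewer cells of a type and less RNA per cell cannot be told apart.

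Cd9 encodes a tetraspanin abundant on platelets and on HSCs. Its level was 154 and 150 RPKM in LT-HSC, 137 and 112 in LT-CML, 67.4 and 68.7 in ST-HSC and ST-CML, and 46.4 and 30.9 in normal and CML KLS- cells. LT libraries were above ST libraries and these above KLS- libraries, with no overlap. Selp encodes P-selectin, which platelets and endothelium store and expose on activation. It was 9.13 RPKM in LT-HSC replicate 1 and 24.1 in replicate 2, 19.7 and 16.6 in LT-CML, 14.4 in ST-HSC and 17.6 in ST-CML, and thus alone among the 9 genes overlapped between LT and ST within normal mice. Normal KLS- cells had 3.21 RPKM and CML KLS- cells 13.6.

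LT and ST stem libraries were compared next, with disease as a second term. Platelet-lineage genes were higher in LT cells: 7 of the 9 genes passed, namely Pf4, Vwf, Itga2b, F2rl2, Gp9, Gp1bb and Cd9, all higher in LT and with every LT library above both ST libraries. Of the 12561 genes tested, 2.28% were called higher in LT by the same rule (limma, adjusted p under 0.05), and 12.9% had every LT library above both ST libraries. F2r and Selp did not pass. Since the genes were chosen with results of these libraries known, the count and the adjusted p of single genes given next describe them and are not independent evidence. Gp1bb passed the filter on low values only through the LT libraries in which it is high, and without it 6 of 8 passed.

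By size, the LT to ST difference on the log2(RPKM + 1) scale was 4.14 for Pf4 (SE 0.23, adjusted p = 0.000423 from limma), 2.77 for Vwf (SE 0.25, adjusted p = 0.00335 from limma) and 2.30 for Itga2b (SE 0.27, adjusted p = 0.00666 from limma). F2rl2 differed by 1.70 (SE 0.21, adjusted p = 0.00701 from limma). Gp1bb differed by 1.02 (SE 0.12) and Cd9 by about as much (SE 0.15, adjusted p = 0.0125 from limma), with 2.26-fold more RPKM in LT-HSC than in ST-HSC and 1.81-fold more in LT-CML than in ST-CML. Gp9 differed by 1.14 and passed narrowly (adjusted p = 0.0479 from limma). F2r differed by 0.59 (SE 0.25, adjusted p = 0.269 from limma), with 2.05-fold more RPKM in LT than in ST cells of normal mice but 1.20-fold in CML mice, and Selp by 0.05 (SE 0.32, adjusted p = 0.958 from limma). The median of the 9 differences was 1.14, against 0.01 over all genes tested.

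The ST side held 1 library from each disease state. Of the 9 genes 6 passed without LT-HSC replicate 2 and 7 without LT-CML replicate 2. Without ST-HSC 4 passed, without ST-CML 2 (Pf4 and Vwf), and with no filter on low values 0 of 9 members and 0 of all genes passed, while 2575 of all genes had an unadjusted p under 0.05. The direction of the 7 called genes was kept in each of these settings. CD150 was the gate between LT and ST cells, and its gene Slamf1 differed by 2.83 (SE 0.20, adjusted p = 0.00123 from limma).

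CML stem libraries were compared with normal HSC libraries with LT or ST gate as a second term. The members were chosen with earlier results of these data known, so their adjusted p are not independent evidence. Of the 8 members other than F2r, 1 passed, F2rl2, which rose by 1.17 on the log2(RPKM + 1) scale (SE 0.20, adjusted p = 0.0145 from limma), and 4.32% of all genes tested passed in either direction. Itga2b was higher by 0.82 (SE 0.26, adjusted p = 0.145 from limma) and Vwf by 0.45 (SE 0.23, adjusted p = 0.380 from limma), neither past the threshold. Differences of the other 5 genes were -0.22 for Pf4, -0.19 for Cd9, 0.20 for Gp1bb, 0.26 for Selp and 0.40 for Gp9, with SE of 0.12 to 0.30 and adjusted p of 0.437 to 0.708 from limma. The median over the 8 genes was 0.33, against -0.04 over all genes tested, and 6 were higher and 2 lower. F2r, with no test, was higher by 1.33 (SE 0.24).

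The F2rl2 call was lost without the LT or ST term (adjusted p = 0.506 from limma), with no filter on low values (0.107), without LT-CML replicate 1 (0.0766) or without LT-CML replicate 2 (0.0735), and was kept between LT libraries alone (1.39, adjusted p = 0.0324 from limma) and without the 6-month LT-HSC library (0.97, adjusted p = 0.0183 from limma).

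**Figure D4:**
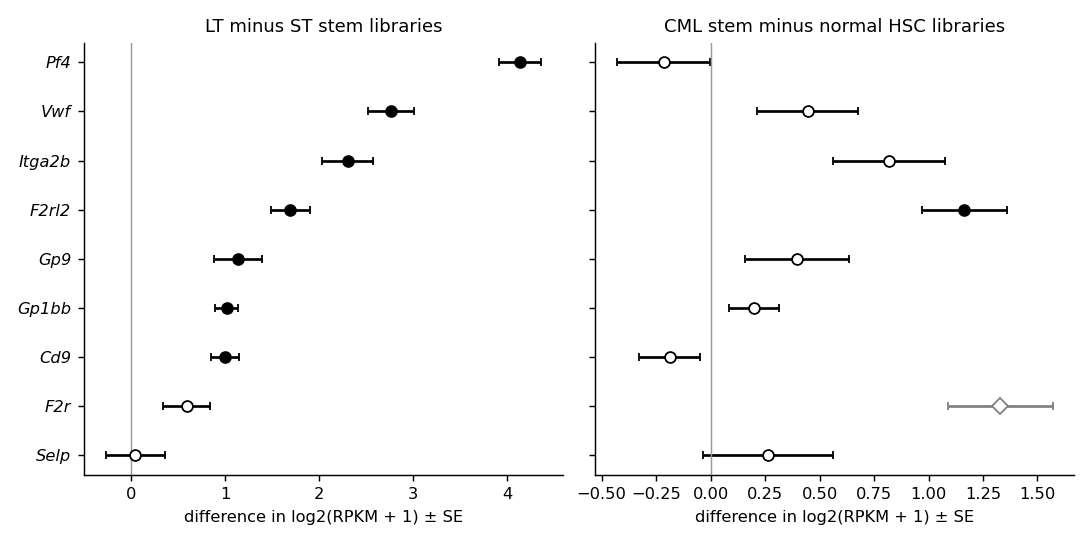
Differences in log2(RPKM + 1) (horizontal axis, with bars of 1 SE) between LT and ST stem libraries (left) and between CML stem and normal HSC libraries (right) for the 9 genes. Filled circles passed an adjusted p of 0.05 in limma, open circles did not, and the open grey diamond is F2r, which was not tested because that contrast chose it. Called genes are 7 on the left and 1, F2rl2, on the right.

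Whether CML changed LT cells differently from ST cells was tested as an interaction. It passed for 0 of the 8 members other than F2r in limma (smallest adjusted p = 1, and 0 with an unadjusted p under 0.05), where 0.0239% of all genes passed. The estimates ran from -0.88 for Gp9 (SE 0.44) to 0.84 for Itga2b (SE 0.50), and F2r, described without a test, was at -0.71 (SE 0.49). Whether CML changed stem cells differently from KLS- cells passed for 0 of 8 members without F2r, again against 0.0239% of all genes, with unadjusted p under 0.05 for 2. These were F2rl2 (1.68, SE 0.38, adjusted p = 0.580 from limma) and Selp (-1.52, SE 0.65, adjusted p = 1 from limma). Both fits have few degrees of freedom, since only LT populations were replicated.

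KLS- cells and age were compared with a single library on each side and have no replicate check. Selp was the 1 of 9 members at least 1 log2 unit higher in CML than in normal KLS- cells (1.79 on the log2(RPKM + 1) scale), a step passed by 1.85% of genes. It was also the 1 of 9 at least 1 unit higher in the 6-month than in the 2-month LT-HSC library (1.31), against 1.19% of genes. About 224 and 831 reads stood behind the KLS- values and 626 and 1981 behind those of LT-HSC. The 6-month library is also the LT-HSC library with the high neutrophil genes, and the part of these in the Selp value was not tested. Over the other members the 6-month minus 2-month difference was between -0.78 (Itga2b) and 0.13 (Pf4), with F2r at -0.72.

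Against KLS- progenitors, described without a test, LT libraries were higher in 8 of the 9 genes with no overlap, the exception being Selp, a pattern of 32.2% of all genes tested. In 3, F2r, Gp9 and Cd9, every stem library was above both KLS- libraries, as in 27.7% of all genes. For Pf4 and Vwf ST cells lay below KLS- cells of the same disease state, and for Itga2b the ratio of ST to KLS- was 1.01 in normal and 0.999 in CML mice.

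Other genes of these pathways came from 10 lists, of 92 genes that are not members, 86 of them tested. The lists were chosen with earlier results of these data known. Their counts and adjusted p in each comparison therefore describe them and are not independent evidence. Between LT and ST libraries 15 were called higher and 2 lower. Of all 12561 genes tested, 2.28% were called higher and 227 genes lower. Of the 15, Gp5, Clec1b and Plcb1 passed the filter on low values only through the LT libraries in which they are high, which leaves 12. Adhesion complexes gave 4 of 7 tested, 2 without Gp5 and Clec1b: Itgb3 (1.72, SE 0.17, adjusted p = 0.00433 from limma), Gp5 (1.03), Clec1b (1.01) and Gp1ba (1.003, SE 0.17, adjusted p = 0.0190 from limma). Among granule genes 2 of 9 were higher, Clu (3.22, SE 0.25, adjusted p = 0.00179 from limma), which encodes the chaperone clusterin, and Mmrn1 (1.28), for multimerin. Of the 13 transcription factors 3 were higher. Gata1, the master factor of erythroid and megakaryocyte genes, differed by 2.77 (SE 0.31, adjusted p = 0.00640 from limma), Gata2 by 1.17 and Zfpm1, for a cofactor of both, by 0.74. Proplatelet genes gave 2 of 11, Rab27b (1.45) and Vcl (0.77), and signalling genes 2 of 16, Rap1b (1.31), a small GTPase that activates αIIbβ3, and Plcb1 (0.57). Agonist receptors gave P2ry1 (1.09), for an ADP receptor, and Ptger3 (0.65) as higher and the prostacyclin receptor gene Ptgir (-0.74) as lower, of 7 tested. Tetraspanins other than Cd9 gave 0 higher and 1 lower of 9, Cd53 (-2.22). No call fell among 9 thrombin and protein C genes or on F2rl3. The LT side was thus higher for part of these lists and not for all of them, with a median of 0.14 over the 86 genes.

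The 17 calls fell to 2 without ST-HSC, to 1 without ST-CML and to 0 with no filter on low values. Gata1 did not follow Itga2b and Vwf beyond the stem gate. It was 12.95 to 34.9 RPKM in LT, 2.53 and 3.36 in ST, but 38.1 and 57.2 in KLS- cells, where Itga2b and Vwf were low. Pf4 was also higher in KLS- than in ST cells, at 77.6 against 16.1 RPKM in normal and 44.5 against 16.4 in CML mice. Unlike Gata1, it stayed below its LT levels there.

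Between CML stem and normal HSC libraries 2 of the 86 list genes were called higher and 2 lower, a share near the 4.32% of all genes called in either direction (2.0% higher). Itgb3 rose by 1.49 (SE 0.16, adjusted p = 0.00210 from limma). Sparc, for a matrix glycoprotein held in platelet granules, rose by 1.20 (SE 0.13). Its level was at most 0.255 RPKM in normal HSCs and 1.07 to 2.02 in CML stem libraries. Sparc passed the filter on low values only through those CML libraries, which leaves 1 gene called higher without it. Ppbp, for another platelet chemokine, fell by 0.97 (SE 0.17, adjusted p = 0.0171 from limma), and Plcb2, a phospholipase downstream of G-protein coupled receptors, fell by 0.69 (SE 0.14, adjusted p = 0.0355 from limma). Of the gate marker genes Slamf1 rose, by 1.10 (SE 0.19, adjusted p = 0.0150 from limma). Flt3 was 3.95 and 2.52 RPKM in LT-HSC and 11.9 and 19.2 in LT-CML (difference over stem libraries 1.38, SE 0.35, adjusted p = 0.0794 from limma), and Cd48 was 10.4 and 5.17 RPKM against 16.8 and 29.5 (1.02, SE 0.35, adjusted p = 0.185 from limma). Both encode markers that the LT gate excludes. The part of these genes' cells in the differences of F2rl2 and Itgb3 was not tested.

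Between KLS+ stem and KLS- libraries 41 of the 86 list genes were called higher in stem cells and 8 lower. Of all 12561 genes tested, 26.5% were called higher and 2791 genes lower. Of the 41, 10 passed the filter on low values only through the stem libraries, among them Itga2, Ppbp, Tbxa2r, Htr2a, Ptger3, Rab27b, Mylk and Tspan9. Mmrn1 was higher by 4.54 (SE 0.15) and Procr, for the endothelial protein C receptor that marks HSCs, by 4.15 (SE 0.31), with adjusted p of 2.04e-06 and 3.41e-05 from limma. F2rl3 was higher by 1.98 (SE 0.16, adjusted p = 5.42e-05 from limma). Procr was 16.9 to 53.4 RPKM in stem libraries, with no called difference between LT and ST (adjusted p = 0.302 from limma), unlike Pf4, Vwf and Itga2b. Gata1 was lower in stem cells by 2.22 (SE 0.28, adjusted p = 0.000422 from limma). Other genes higher in stem cells were Pros1 (0.47), for protein S, the signalling genes Plcb2 (1.01), Rock2 (0.85) and Rap1b (0.78), the adhesion genes Itgb3 (1.24), Gp1ba (1.04) and Itga2 (0.60), and the granule genes Thbs1 (2.04), Ppbp (1.27) and Nbeal2 (0.79). Agonist receptor genes were P2rx1 (1.58), Tbxa2r (1.56), Htr2a (1.51) and Ptger3 (1.10), transcription factor genes Meis1 (3.16), Gata2 (1.87) and Erg (1.14), proplatelet genes Zyx (1.59), Plek (1.57), Rab27b (1.47) and Mylk (1.19), and tetraspanin genes Tspan9 (0.71) and Cd81 (0.62). Lower in stem cells were Serpine2 (-2.39), for a thrombin inhibitor, Rasgrp2 (-1.45), Fcer1g (-1.28), Cd53 (-1.49) and Tspan33 (-0.85). Adjusted p of these ran up to 0.0476 from limma.

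Genes whose levels ran most like those of F2r, Vwf and Itga2b were taken from 7519 genes by Pearson correlation of log2(RPKM + 1) over the 8 libraries, as a description. For F2r they were Socs2 (r = 0.995), Gnb4 (0.981), Gm11346 (0.965), Gatad1 (0.961) and 9530048O09Rik (0.959). Socs2, for a feedback inhibitor of cytokine receptors, was 12.1, 9.01 and 10.8 RPKM in LT-CML 1, LT-CML 2 and ST-CML and 6.63, 3.25 and 2.28 in LT-HSC 1, LT-HSC 2 and ST-HSC, and at most 0.514 in KLS- cells. For Vwf they were Ppic (0.977), Slamf1 (0.970), Itga2b (0.961), Treml1 (0.958) and Arf2 (0.953). For Itga2b they were Slamf1 (0.988), Treml1 (0.976), Gmds (0.964), Arf2 (0.963) and Vcl (0.963). Treml1, for a receptor of platelet granules, was 5.04 to 16.6 RPKM in LT and at most 2.20 in other libraries. None of the 5 genes nearest to F2r was among those nearest to Vwf or Itga2b. Among the 9 members the correlation was highest between Vwf and Gp1bb (0.982) and lowest between Pf4 and Selp (0.122), and F2r was closer to Gp9 (0.907) than to Pf4 (0.381). The 8 points include libraries of the same gate and disease state, and are not independent measurements of a relation.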

How the data were processed

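RNA of sorted mouse bone marrow cells was made into cDNA with an ultra-low-input kit primed with oligo-dT and sequenced as paired-end reads of 100 bases. The authors mapped the reads to mm9 with a commercial service and, for 20207 genes in each of 8 libraries, deposited RPKM. The gene annotation, the counting rule and the use of strand are not given in the sources used here. RPKM corrects for depth and length but not for composition. RPKM are not counts, so no count model was used. Estimated reads came from low genes, since 90.1% of 4294 such genes had RPKM that were multiples of a smallest unit within a tolerance of 2%. Their counting errors cover sampling only.

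Groups came from the labels. The members and lists were chosen with earlier results of these data known. log2(RPKM + 1) of the 12561 genes with a summed RPKM above 1 was fitted with limma 3.58.1 in R 4.3.3 (eBayes with trend, Benjamini-Hochberg adjustment, threshold 0.05). The fit of the 6 stem libraries had terms for disease and for LT or ST, the KLS- contrast used 8 libraries with the same terms, and interactions used a mean for each of 6 populations. Lists were described by counts and medians. Genes were named by a rule: the 9 members, up to 4 called genes for each list and comparison by size, the receptor and complex genes, 3 neighbours on each side of F2r, and the 5 genes nearest in pattern. Loci came from GENCODE M1 on mm9, where 94.0% of gene names matched, and upstream sequences from RefSeq on GRCm38.p6. Alternatives covered the pseudocount, the filter, quantile and upper-quartile scaling, the trend, model terms and leaving out each library in turn. Python 3.11.15 with pandas 2.3.3 was used for all other steps. Some items that the naming rule covers are not reported here.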

Additional observations from a re-analysis of the deposited data

Results flagged for a closer look

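F2r was singled out because the difference between CML and normal libraries had opposite signs in stem and KLS- cells. Mean RPKM of F2r was 2.42 times as high in CML stem libraries as in normal HSC libraries, with every CML stem library above every normal one. CML KLS- cells, at 7.60 RPKM, lay just below normal KLS- cells, at 8.22, a gap with counting errors of 4.73% and 4.26% that shows no fall. The difference was not tested, since F2r was chosen on these contrasts and each KLS- population had 1 library.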

How the results depend on the processing

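Between LT and ST stem libraries 7 of 9 members were called, and 0 with no filter on low values (0 of all genes against 513, and 0 list genes against 17), for which the cause was not tested. Leaving out a library gave 2 to 7 members, 1 to 23 list genes and 55 to 712 of all genes. Gp9 also fell short with quantile normalization (adjusted p = 0.0535 from limma), upper-quartile scaling (0.0534) and no intensity trend (0.0546). Between CML stem and normal HSC libraries 1 member, F2rl2, was called, and 0 with no filter or without the LT or ST term. All genes called fell from 543 to 172 with no filter, 294 without that term and 217 between LT libraries alone, and list genes from 4 to 2 with no filter and 1 without the term. Leaving out a library gave 0 to 1 members, 2 to 5 list genes and 215 to 614 of all genes. Between stem and KLS- libraries leaving out a library gave 33 to 51 list genes against 49, and 3178 to 6338 of all genes against 6123. The difference of the CML effect between LT and ST was called for 3 of all genes, 0 with pseudocount 0.1, 5 with a mean of at least 1 RPKM and 0 without any 1 LT library, and that between stem and KLS- for 3, and 0 with pseudocount 0.1, quantile normalization or upper-quartile scaling. No member was called for either difference in any setting. Of the values for single genes under these settings, 332 were counted as unchanged, 25 lost the call and 8 turned direction. Unchanged meant the same direction and call. For F2r where it had no test, it meant the same direction and a shift under the SD of its log2(RPKM + 1) over normal HSC libraries. All 8 came from leaving out a library and missed the threshold. They belonged to Pf4 (-0.42 to 0.055 in CML against normal and -0.78 to 0.049 for the difference of effects between LT and ST), Vwf (-0.59 to 0.34 for that difference) and Selp (-0.11 to 0.64 in CML against normal, -0.24 to 0.33 in LT against ST and -0.67 to 0.64 for that difference). Gp1bb gave no value with a mean of at least 1 RPKM. No paired analysis was possible because the labels of the groups compared share no replicate numbers that mark a pair. Depth limits Gp1bb and F2rl1, whose values in ST and KLS- cells rest on 5 reads or fewer.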
